A study of Homo sapiens with 59 samples.

Results

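GREM1 and 9 genes of bone morphogenetic protein (BMP) signalling were followed in A549 cells, an established human non-small cell lung carcinoma line, 24 h after a herbal extract or vehicle had been added. The 10 genes were taken by symbol from the 60675 genes of the deposited table, and all 10 had enough counts to be among the 18568 genes tested. They are the secreted antagonist GREM1, the ligands BMP2 and BMP4, the receptor BMPR2, the pseudoreceptor BAMBI, the inhibitory SMADs SMAD6 and SMAD7, and the target genes ID1, ID2 and ID3. GREM1 was selected on its measured levels, which were high with Coptidis Rhizoma in earlier results of these data, so its values with that extract are given as a description with no test. Its tests of other extracts against vehicle use the same vehicle libraries, so their p-values are not independent of that choice. Counts of members below are over the 9 others unless GREM1 is named.

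BMPs are secreted ligands of the TGF-beta family. They bring together type I and type II receptors, BMPR2 being of type II, which leads to phosphorylation of SMAD1, SMAD5 and SMAD9. These enter the nucleus with SMAD4 and raise transcription of the ID genes, whose proteins hold back basic helix-loop-helix transcription factors, and of SMAD6 and SMAD7, which feed back on the pathway. GREM1 binds BMP2 and BMP4 outside the cell and keeps them from their receptors, and BAMBI resembles a type I receptor that lacks the kinase domain. In the lung the pathway is known for its part in branching and airway repair, and BMPR2 for inherited pulmonary arterial hypertension.

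The study compared 8 extracts made with 70% ethanol with vehicle, which was DMSO, in 59 libraries. Doses of 4.4, 22 and 110 µg/mL were used for Coptidis Rhizoma (2 libraries a dose) and of 7.6, 38 and 190 µg/mL for Bupleuri Radix (3 a dose). The rest received 20, 100 and 500 µg/mL, with 2 libraries a dose for Zizyphi Fructus and Yijung-tang, 3 for Cimicifugae Rhizoma and Citri Unshius Pericarpium, 1 for Banhasasim-tang, and 3, 2 and 3 for Aconiti Lateralis Radix Preparata. The vehicle had 3 libraries. The last 2 of the 8, whose names end in -tang, are formulas that combine herbs, and all cells were of the same line. Values are given as TMM-scaled CPM, counts relative to the size of the library, and CPM values of different genes are not compared because gene length was not taken into account.

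Library totals ran from 17214755 to 39751161 expected counts. Keratin transcripts of epithelial cells were high (KRT8 averaged 3495 ± 84.8 CPM and KRT18 2703 ± 139 CPM in vehicle cells, SD, n = 3), while the lung lineage genes NKX2-1, SFTPB and SFTPC stayed at or below 0.322 CPM in every library. The first number of each library code splits the libraries into sets: 11 (Coptidis Rhizoma, Zizyphi Fructus), 12 (Citri Unshius Pericarpium, Cimicifugae Rhizoma), 13 (Bupleuri Radix, Aconiti Lateralis Radix Preparata), 14 (both formulas) and D1 (vehicle). All titles name the same batch, and the labels do not explain the code. A difference between an extract and vehicle cannot be told apart from a difference between their sets, whereas the high and low dose of an extract lie in the same set. In set 12, 4 libraries stood apart from the others (Citri Unshius Pericarpium high replicate 3 and medium replicate 3, Cimicifugae Rhizoma medium replicate 2 and low replicate 2), with 3149 to 4601 CPM in antisense genes, against at most 3137 CPM in the other 55. The 4 were taken as a fixed list, not by a cutoff on this value. The lowest of them, Cimicifugae Rhizoma medium replicate 2, was close to Coptidis Rhizoma high (3137 and 3133 CPM), which was kept. In bulk RNA, fewer cells expressing a gene and less RNA per cell cannot be told apart.

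GREM1 was the member whose level varied most over the study, a ranking that includes the values with Coptidis Rhizoma for which it was chosen. In vehicle cells it had 5.13, 4.602 and 4.46 CPM. With Coptidis Rhizoma it had 11.9 and 11.0 CPM at the low dose, 23.7 CPM in both libraries at the medium dose, and 44.0 and 40.6 CPM at the high dose. These values increase with dose and lie above every vehicle library at all 3 doses. On the log2 scale the high, medium and low dose stood 3.16, 2.32 and 1.28 above vehicle, and the high dose stood 1.88 above the low dose, as a description of the gene for which the list was chosen.

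**Figure D1:**
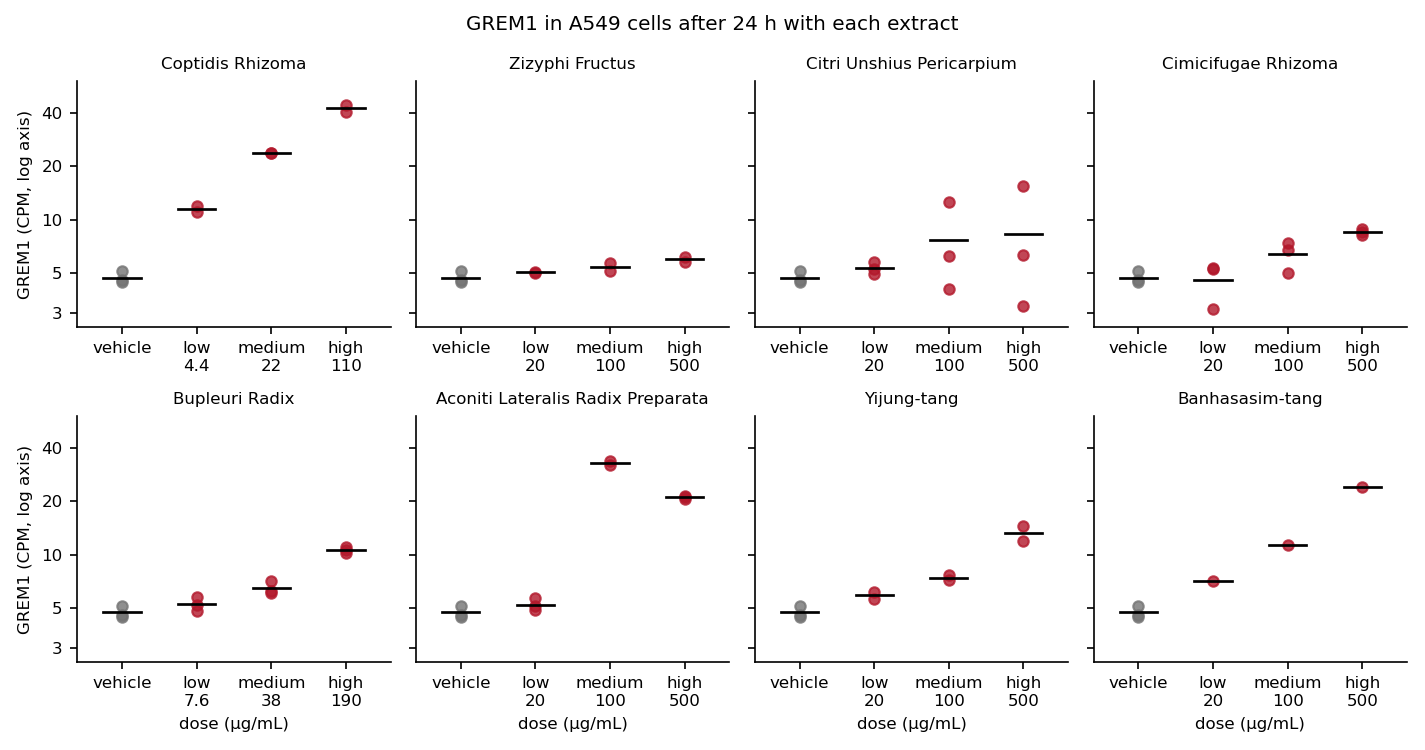
GREM1 level in CPM (log axis) in every library of each of the 8 extracts, by dose from vehicle to high. Points are libraries and bars are group means. Coptidis Rhizoma, Aconiti Lateralis Radix Preparata and Banhasasim-tang reach more than 20 CPM, against 4.46 to 5.13 CPM in the vehicle.

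With Aconiti Lateralis Radix Preparata GREM1 had 5.68, 5.12 and 4.85 CPM at the low dose, 33.7 and 32.0 CPM at the medium dose and 20.6, 21.4 and 21.01 CPM at the high dose. The medium dose was thus higher than the high dose, and both were above all low-dose and vehicle libraries. GREM1 rose by 2.79 ± 0.31 (log2 fold change ± SE, edgeR quasi-likelihood test, adjusted p = 4.94e-09) at the medium dose and by 2.15 ± 0.29 (adjusted p = 2.57e-06) at the high dose against vehicle. Within the set, it rose by 2.01 at the high dose (adjusted p = 7.50e-06) and by 2.65 at the medium dose (adjusted p = 9.63e-09), each against the low dose. The medium dose differed from the high dose by 0.64, which did not pass the test (adjusted p = 0.206) although the libraries did not overlap. That difference was called when the fit held only the libraries compared (adjusted p = 6.36e-06), without the 4 libraries that stood apart (0.00361) and with no filter on low counts (0.0114).

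With Bupleuri Radix GREM1 had 4.82, 5.24 and 5.81 CPM at the low dose, 7.15, 6.24 and 6.08 CPM at the medium dose and 10.6, 11.1 and 10.3 CPM at the high dose. The high dose lay above every other dose and vehicle library, and the rise against vehicle of 1.17 ± 0.29 was called (adjusted p = 0.0131). The call was lost without vehicle replicate 2 (adjusted p = 0.0676), vehicle replicate 3 (0.0643) or high-dose replicate 2 (0.0544). The 1.01 against the low dose was not called (adjusted p = 0.0566), but it was with the replicate number as a block (0.0476), by DESeq2 (0.0231), without the 4 libraries that stood apart (0.000153), in a fit of the extract's own libraries (2.01e-06) and with no filter on low counts (2.69e-06).

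With Yijung-tang GREM1 had 6.16 and 5.64 CPM at the low dose, 7.68 and 7.17 CPM at the medium dose and 11.9 and 14.4 CPM at the high dose. The 3 doses did not overlap, and all lay above vehicle. The rise at the high dose of 1.47 ± 0.31 was called against vehicle (adjusted p = 0.00549), though not without high-dose replicate 2 (0.105). The 1.15 against the low dose was not called (adjusted p = 0.188), but it was without the 4 libraries that stood apart (0.000485), in a fit of the extract's own libraries (5.28e-05) and with no filter on low counts (1.9e-05). Banhasasim-tang, with a single library a dose and no test, had 7.13, 11.4 and 24.1 CPM at the low, medium and high dose.

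GREM1 was not called in the other comparisons by the fit of all libraries. With Cimicifugae Rhizoma at the high dose it had 8.82, 8.17 and 8.51 CPM, all above vehicle, and the log2 difference was 0.84 (adjusted p = 0.336). With Citri Unshius Pericarpium at the high dose it had 6.31, 15.5 and 3.27 CPM, a spread that ran from below to above the vehicle, and the log2 difference was 0.88 (adjusted p = 0.0612). It rested on replicate 2, without which it was 0.025, and it was called without replicate 1 (1.05, adjusted p = 0.0120) or replicate 3 (1.23, adjusted p = 0.0268), by DESeq2 (0.0374) and with no filter on low counts (3.81e-05). Without the 4 libraries that stood apart, of which the 3.27 CPM library is a member, the log2 differences were 1.26 (adjusted p = 0.000632) for Citri Unshius Pericarpium and 0.84 (adjusted p = 0.00694) for Cimicifugae Rhizoma. Without the 4 libraries GREM1 was also called in Citri Unshius Pericarpium medium (1.01, adjusted p = 0.0130) and high against low (1.095, 0.0043). The medium-dose libraries had 4.06, 6.26 and 12.6 CPM, and the first of these values is from a library among the 4. Replicate 2 held the highest value at both upper doses (12.6 and 15.5 CPM). Without high-dose replicate 2, the log2 difference of high against low was -0.15 for GREM1. Fits of only the libraries compared called it at the medium doses of Bupleuri Radix (0.45, adjusted p = 0.0099) and Yijung-tang (0.64, 0.0215). With no filter on low counts it was called in Citri Unshius Pericarpium medium (0.00705) and high against low (0.00154) and in Cimicifugae Rhizoma high against vehicle (0.000941) and against low (0.000213). With Zizyphi Fructus GREM1 had 5.10 and 5.02 CPM at the low, 5.13 and 5.70 CPM at the medium and 5.77 and 6.20 CPM at the high dose.

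Ordered by mean, the GREM1 levels were 42.3 CPM in Coptidis Rhizoma high, 32.8 CPM in Aconiti Lateralis Radix Preparata medium, 24.1 CPM in Banhasasim-tang high, 23.7 CPM in Coptidis Rhizoma medium and 21.01 CPM in Aconiti Lateralis Radix Preparata high. The libraries of these groups did not overlap with those of the next, though Banhasasim-tang had only 1. Yijung-tang high (13.2 CPM), Coptidis Rhizoma low (11.5 CPM) and Banhasasim-tang medium (11.4 CPM) overlapped in turn, and were followed by Bupleuri Radix high (10.7 CPM) and Cimicifugae Rhizoma high (8.50 CPM). From there to Cimicifugae Rhizoma low (4.62 CPM), neighbours in the order overlapped, except Yijung-tang medium (7.42 CPM) and the single library of Banhasasim-tang low (7.13 CPM). In 16 of 24 extract groups every library was above every vehicle library, and 23 of 24 group means were above the vehicle mean of 4.73 CPM. The 16 include all doses of Coptidis Rhizoma, for which GREM1 was chosen, and the single libraries of Banhasasim-tang. All 24 groups were set against the same vehicle libraries, and the share of all genes with such values is not given here. Over the 18 comparisons with vehicle that do not hold Coptidis Rhizoma, GREM1 was called in 4, all upward. Among the 6 comparisons of a high with a low dose it was called in 1.

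The promoters of GREM1, of the ligand BMP4 and of the target gene ID1 are shown because SMAD proteins are known to bind GC-rich boxes and a short CAGAC core, and because the levels of these 3 genes took different courses. The windows run from 250 bases before to 50 bases after a RefSeq start on GRCh38.p14. Capitals mark 3 motifs read on both strands, so that a match on the minus strand stands as its reverse complement. The GC-rich box is GGCGCC in this search. A related box searched with it is GGAGCC, and no matches overlap in these 3 windows. The GREM1 window is chr15:32717754-32718053 (plus strand), that of BMP4 chr14:53955001-53955300 (minus strand) and that of ID1 chr20:31605039-31605338 (plus strand).
GREM1: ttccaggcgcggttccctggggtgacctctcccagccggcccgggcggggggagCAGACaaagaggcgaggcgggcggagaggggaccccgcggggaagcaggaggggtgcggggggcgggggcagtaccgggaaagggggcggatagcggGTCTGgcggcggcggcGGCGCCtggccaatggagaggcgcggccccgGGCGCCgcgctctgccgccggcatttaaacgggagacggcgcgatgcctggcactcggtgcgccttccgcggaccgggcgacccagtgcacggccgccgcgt
BMP4: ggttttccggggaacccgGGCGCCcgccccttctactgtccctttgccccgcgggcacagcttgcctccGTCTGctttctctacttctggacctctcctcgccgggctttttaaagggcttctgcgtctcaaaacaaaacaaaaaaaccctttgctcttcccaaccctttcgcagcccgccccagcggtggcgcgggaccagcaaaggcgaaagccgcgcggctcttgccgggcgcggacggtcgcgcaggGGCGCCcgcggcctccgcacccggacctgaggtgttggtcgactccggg
ID1: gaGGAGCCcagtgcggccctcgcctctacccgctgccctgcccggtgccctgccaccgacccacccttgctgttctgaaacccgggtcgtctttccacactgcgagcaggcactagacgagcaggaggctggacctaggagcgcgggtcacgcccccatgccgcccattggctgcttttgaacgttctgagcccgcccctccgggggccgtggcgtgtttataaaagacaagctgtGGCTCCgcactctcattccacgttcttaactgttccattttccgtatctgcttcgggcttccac

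The GREM1 window held GGCGCC at positions -83 and -52 from the start and CAGAC at -196 and -99, in 77% GC. The ID1 window held GGAGCC at -248 and -14, in 62.7% GC, and that of BMP4 GGCGCC at -232 and 2 and CAGAC at -181. Of 35116 promoters of this length, 19.2% held GGCGCC, 36% GGAGCC, 45.3% CAGAC and 70.8% any of them, so matches are common. There were 14 windows for 9 of the 10 members, since a gene may have several starts (3 for BMP4 and SMAD7, 2 for GREM1), and the windows printed are the first ones. Of the 14, 4 (28.6%) held GGCGCC, 7 (50%) GGAGCC and 10 (71.4%) CAGAC, and the ID2 window held none of the 3.

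The highest group mean of GREM1, that of Coptidis Rhizoma high, for which it was chosen, was 9.17 times the lowest. This ratio was 5.61 for BMP2, which had few counts, and 1.47 to 2.31 for the 8 others. Outside Coptidis Rhizoma the highest GREM1 mean, in Aconiti Lateralis Radix Preparata medium, was 32.8 CPM or 6.95 times the vehicle mean. Over the 21 comparisons of an extract dose with vehicle there were 8 calls in 189 tests, and 5 of the 8 were at the medium dose of Aconiti Lateralis Radix Preparata. Of all tested genes, 17.5% were called in that comparison, against 5 of the 9 members, and leaving out either library of that group left 3 calls. At its high dose 4.65% of all genes and no member were called. Coptidis Rhizoma called 12.6% of all genes at the high dose with 1 member, and 3.27% at the medium and 0.447% at the low dose with none. Bupleuri Radix called 3.36% at the high dose with 1 member, and Cimicifugae Rhizoma 0.377% with 1. No member was called in Citri Unshius Pericarpium high (4.42% of all genes), Yijung-tang high (1.37%), or in Cimicifugae Rhizoma medium (0.0269%), Yijung-tang medium (0.0108%), Citri Unshius Pericarpium low (0.00539%) or Bupleuri Radix medium (0.00539%).

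In the remaining 8 comparisons with vehicle the fit of all libraries called 0% of all genes, namely the 3 doses of Zizyphi Fructus, Citri Unshius Pericarpium medium and the low doses of Cimicifugae Rhizoma, Bupleuri Radix, Aconiti Lateralis Radix Preparata and Yijung-tang. Genes with an unadjusted p under 0.05 numbered 439, 497 and 460 for Zizyphi Fructus high, medium and low, and 2565, 1263, 1367, 1214 and 743 for the others in that order. DESeq2 called 1, 2 and 0 genes with Zizyphi Fructus and 21, 0, 29, 25 and 3 with the others. In fits of only the libraries compared, edgeR called 12.2% of all genes in Bupleuri Radix low, 7.28% in Aconiti Lateralis Radix Preparata low and 3.03% in Yijung-tang low, and at most 0.117% in the other 5.

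**Figure D2:**
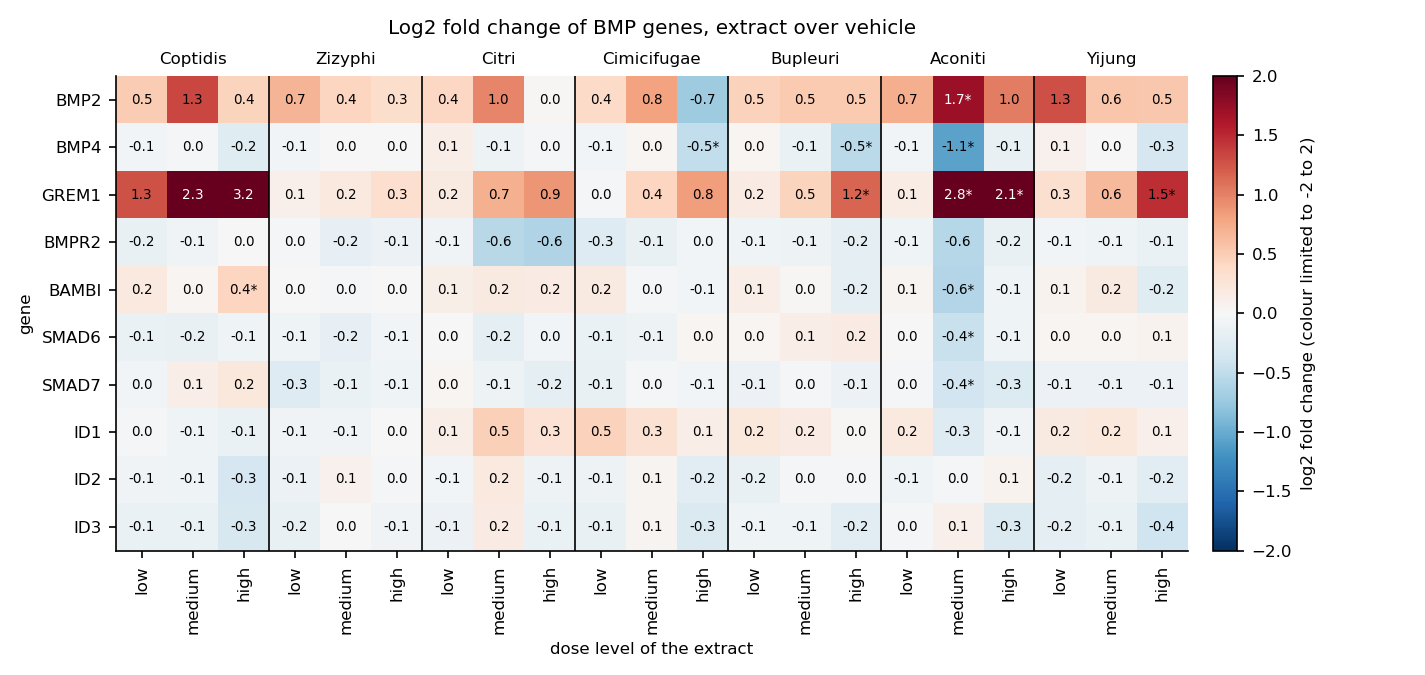
Log2 fold change of the 10 members (rows) in the 21 comparisons of an extract dose with vehicle (columns), with stars for calls at an adjusted p below 0.05. GREM1 with Coptidis Rhizoma was not tested. The row of GREM1 holds the largest values, up to 3.16 with Coptidis Rhizoma, for which the gene was chosen. The calls of the other members cluster in the Aconiti Lateralis Radix Preparata medium column.

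Among the ligands, BMP4 fell in 3 of the comparisons. It had 2.58 and 2.31 CPM at the medium dose of Aconiti Lateralis Radix Preparata, against 4.58, 5.12 and 5.79 CPM in vehicle, a fall of 1.07 ± 0.14 on the log2 scale (adjusted p = 1.05e-07). It had 3.58, 3.31 and 3.79 CPM with Bupleuri Radix at the high dose and fell by 0.53 ± 0.12 (adjusted p = 0.00476), and 3.12, 3.88 and 3.97 CPM with Cimicifugae Rhizoma at the high dose, a fall of 0.49 ± 0.12 (adjusted p = 0.0457). In all 3 groups every library lay below every vehicle library. The Bupleuri Radix call was lost without vehicle replicate 3 (adjusted p = 0.0636) or high-dose replicate 2 (0.0562) and with no filter on low counts (0.206). The Cimicifugae Rhizoma call was lost without vehicle replicate 2 (0.170) or 3 (0.385), without high-dose replicate 1 (0.384), 2 (0.105) or 3 (0.0890), by DESeq2 (0.0689), with no filter on low counts (0.681) and when the fit held only the libraries compared (0.729). In Yijung-tang at the high dose (4.37 and 3.75 CPM) and the single high-dose library of Banhasasim-tang (3.75 CPM) BMP4 also lay below vehicle, without a call in the tested extract. Against the low dose of its own set, BMP4 fell by 0.57 ± 0.12 in Bupleuri Radix high (adjusted p = 0.00235, and 0.171 with no filter on low counts).

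BMP2, the other ligand, was near the detection limit, with 0 to 23 counts in a library. In Aconiti Lateralis Radix Preparata medium it had 0.670 and 0.495 CPM, against 0.274, 0.139 and 0.102 CPM in vehicle. The rise of 1.70 ± 0.54 was called (adjusted p = 0.0216), and the groups did not overlap. The call was lost without vehicle replicate 2 (adjusted p = 0.0877) or 3 (0.0830) or without medium-dose replicate 1 (0.173), and DESeq2 gave no adjusted p at this count. A library of Yijung-tang at the low dose had 0.669 CPM as well, the other one 0.204 CPM.

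BMPR2 was not called in any comparison by the fit of all libraries. It had 72.0 and 79.3 CPM in Aconiti Lateralis Radix Preparata medium, against 120, 115 and 102 CPM in vehicle, and the groups did not overlap. The call depended on the fit: in a fit without the 4 libraries that stood apart the log2 difference of -0.56 was called (adjusted p = 0.000378), and likewise when the fit held only the libraries compared (4.88e-05) or no filter on low counts was used (0.00511).

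BAMBI was called in both directions. In Coptidis Rhizoma high it had 24.2 and 25.7 CPM, against 17.4, 18.6 and 19.8 CPM in vehicle, a rise of 0.43 ± 0.14 (adjusted p = 0.0360). In Aconiti Lateralis Radix Preparata medium it had 13.9 and 10.9 CPM and fell by 0.58 ± 0.14 (adjusted p = 0.00280). Neither group overlapped with vehicle. The Coptidis Rhizoma call was lost without vehicle replicate 1 (adjusted p = 0.100) or 2 (0.0613) and without Coptidis Rhizoma replicate 2 (0.0904) or 3 (0.210) and with no filter on low counts (0.0755), and the other call without medium-dose replicate 2 (0.171).

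Of the inhibitory SMADs, both fell in Aconiti Lateralis Radix Preparata medium. SMAD6 had 56.1 and 56.8 CPM there, against 77.1, 80.2 and 73.6 CPM in vehicle, a fall of 0.45 ± 0.11 (adjusted p = 0.00165). SMAD7 had 17.9 and 18.4 CPM, against 24.9, 23.0 and 23.3 CPM in vehicle, a fall of 0.38 ± 0.12 (adjusted p = 0.0226). The groups did not overlap for either gene. The SMAD7 call was lost without vehicle replicate 1 (adjusted p = 0.0885) or without medium-dose replicate 1 (0.165) or 2 (0.12) and with no filter on low counts (0.158), and the SMAD6 call was kept in all 11 alternatives. SMAD6 was highest in Bupleuri Radix high (90.1, 84.7 and 85.0 CPM) and SMAD7 in Coptidis Rhizoma high (27.1 and 28.1 CPM), and neither passed the test.

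The target genes ID1, ID2 and ID3 were called by the fit of all libraries in none of their 84 tests over the 28 comparisons of a dose with vehicle or of a high with a low dose. Of all tested genes, 17.5% were called in Aconiti Lateralis Radix Preparata medium, 12.6% in Coptidis Rhizoma high and at most 4.65% in any other of these comparisons. With shares this low, the absence of ID calls does not set these genes apart from genes at large. ID1 had 132 and 133 CPM in Aconiti Lateralis Radix Preparata medium, the lowest group mean, against 143, 156 and 174 CPM in vehicle. ID2 had 120 and 122 CPM in Coptidis Rhizoma high, against 151, 153 and 153 CPM in vehicle, and ID3 had 127 and 130 CPM there, against 155, 161 and 165 CPM. These ID2 and ID3 values do not overlap with vehicle. When the fit held only vehicle and Coptidis Rhizoma, both were called (adjusted p = 7.41e-06 for ID2 and 1.79e-05 for ID3, log2 differences of -0.32 and -0.29). That fit called 44% of all genes in this comparison. Without the 4 libraries that stood apart ID2 was called (0.00902), with 27.9% of all genes. ID1 was called at the medium against the low dose of Aconiti Lateralis Radix Preparata without the 4 libraries (-0.43, adjusted p = 0.00870), with the replicate block (0.0295) and with no filter on low counts (0.0399).

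The medium dose of Aconiti Lateralis Radix Preparata was the group in which the members differed most from vehicle. The median log2 difference of the 9 members was -0.38 there, against -0.01 for all tested genes. GREM1 and BMP2 rose, and BMP4, SMAD6, SMAD7 and BAMBI fell. The high dose of the same extract, given at 500 µg/mL against 100 µg/mL, showed the GREM1 rise with none of the other calls. Compared directly in 2 comparisons added after the data had been seen, the medium dose was lower than the high dose in BMP4 by 0.92, SMAD6 by 0.37 and BAMBI by 0.50 (3 of 9 members, with 7.78% of all genes called), and lower than the low dose in BMP4 by 1.02, SMAD6 by 0.44, SMAD7 by 0.34 and BAMBI by 0.64 (4 of 9 members, with 17.8% of all genes called). Against the high dose, SMAD6 was lost without medium-dose replicate 1 (adjusted p = 0.172) or 2 (0.143) or high-dose replicate 2 (0.0580), and BAMBI without medium-dose replicate 2 (0.460) or high-dose replicate 2 (0.0754), and with no filter on low counts neither was called (0.181 and 0.0557). Against the low dose, SMAD7 was lost whichever of the 5 libraries was left out (adjusted p from 0.0640 to 0.245) and with no filter on low counts (0.234), and BAMBI without medium-dose replicate 2 (0.1). BMP4 was called in all alternatives of both comparisons.

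**Figure D3:**
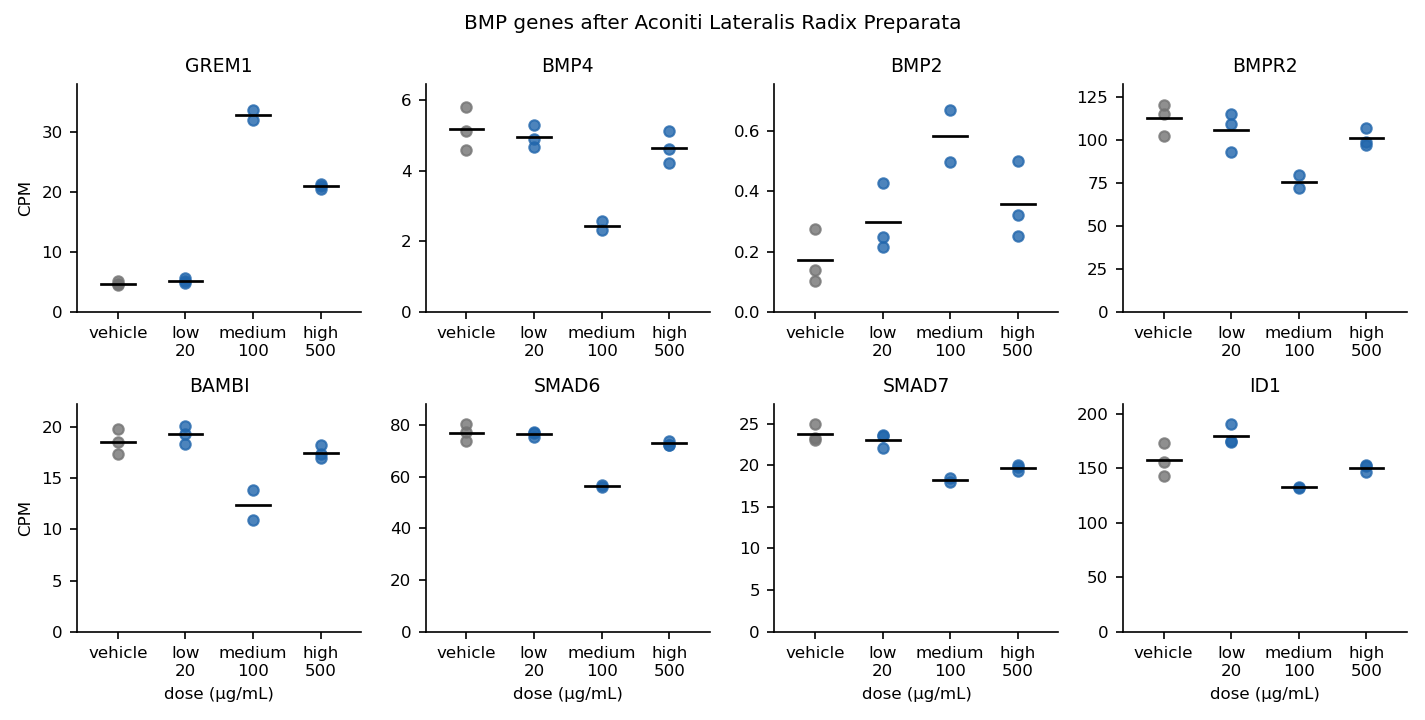
CPM of 8 members in vehicle and at the low, medium and high dose of Aconiti Lateralis Radix Preparata, 1 point a library with bars at the means. GREM1 is highest at the medium dose (33.7 and 32.0 CPM), where BMP4, SMAD6, SMAD7 and BAMBI have their lowest points.

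Markers of other cells were read beside this group. The summed level of the 8 fibroblast markers was 8.12 to 8.24 CPM in Aconiti Lateralis Radix Preparata medium, 21.4 to 25.4 CPM at its high dose, 31.7 to 34.1 CPM in Coptidis Rhizoma high and 39.0 to 40.6 CPM in vehicle. COL1A1 made up most of the sum, with a mean of 4.24 CPM at the medium dose and 32.7 CPM in vehicle, and DCN, a defining fibroblast marker, was at 0 in 42 of the 59 libraries. The 4 endothelial markers together stayed at or below 0.235 CPM in all libraries. The 4 blood cell markers summed to 28.9 to 30.8 CPM at the medium dose and 7.22 to 9.01 CPM in vehicle. Most of the sum was CD68, with means of 29.3 CPM at the medium dose and 6.18 CPM in vehicle. CD14 went the other way, with means of 0.516 and 1.95 CPM, while PTPRC was at 0 in 50 libraries and CD3E in all 59. Nearly all of the summed epithelial markers was KRT8 and KRT18, which averaged 3324 and 2387 CPM over all libraries (CDH1 averaged 28.6 CPM). These sums were 3981 to 4225 CPM at the medium dose and 6066 to 6334 CPM in vehicle. They were lower in other groups with calls as well, at 3611 to 3619 CPM in Coptidis Rhizoma high, 4043 to 4262 CPM in Bupleuri Radix high, 4092 to 4530 CPM in Cimicifugae Rhizoma high, 4405 to 4640 CPM in Yijung-tang high and 4498 to 4862 CPM in Aconiti Lateralis Radix Preparata high. The blood cell markers summed to 19.7 to 29.4 CPM in Bupleuri Radix high, 15.1 to 20.2 CPM in Aconiti Lateralis Radix Preparata high, 13.4 to 15.2 CPM in Yijung-tang high and 9.41 to 10.6 CPM in Coptidis Rhizoma high. The part of these differences in the members' values was not tested.

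Within set 12 the ID genes and BMPR2 varied more between libraries of a group than between doses. In the 4 libraries that stood apart ID1 had 236 to 326 CPM, against 133 to 208 CPM in the other 14 of the set. BMPR2 had 41.1 to 68.5 CPM in the 4 and 65.6 to 120 CPM in the 14, and GREM1 had 3.16 to 5.01 CPM in the 4. The summed epithelial markers were 6796 to 14337 CPM in the 4 and 4092 to 8228 CPM in the 14, and the summed fibroblast markers 37.5 to 84.4 CPM in the 4, the highest in Citri Unshius Pericarpium high replicate 3, and 27.7 to 44.9 CPM in the 14. A library outside the 4, Citri Unshius Pericarpium medium replicate 2, had the highest ID3 of the study (242 CPM) and the lowest BMPR2 of the 14 (65.6 CPM). High ID1 and low BMPR2 thus occurred together in the 4 libraries. Over group means the correlation of BMPR2 and ID1 was -0.29, and it was 0.10 without the 4 libraries. The part of whatever sets these libraries apart was not tested.

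**Figure D4:**
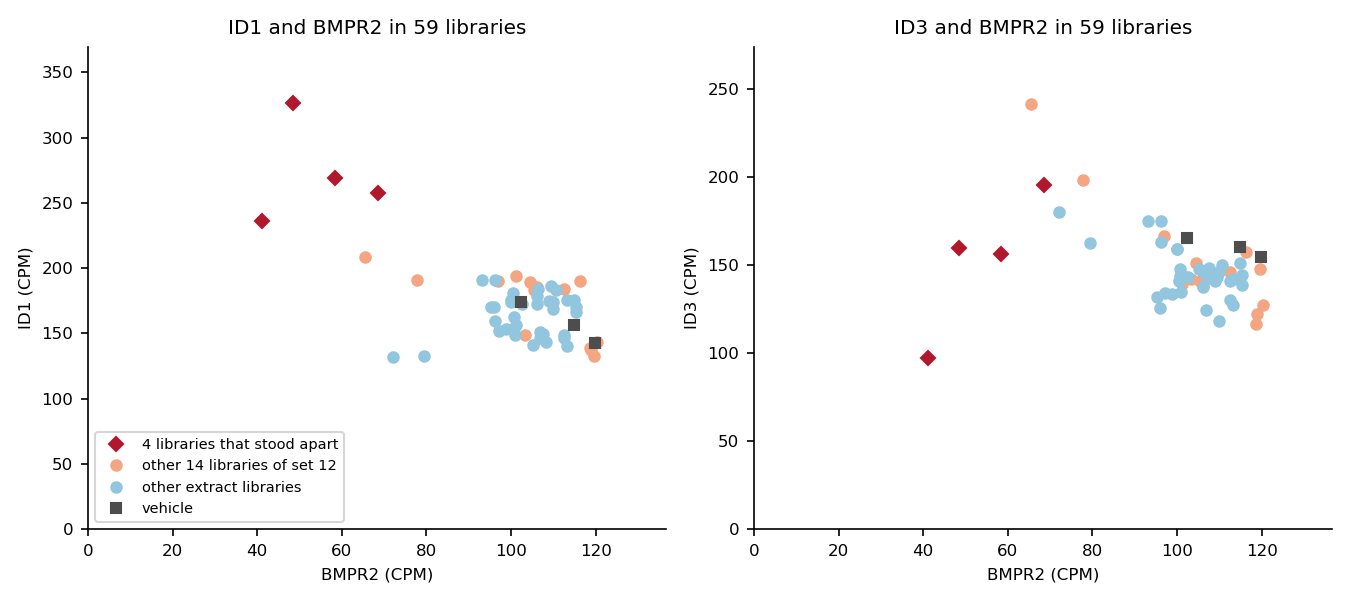
ID1 and ID3 (vertical axes, CPM) against BMPR2 (horizontal axis, CPM) in the 59 libraries. Diamonds are the 4 libraries that stood apart, which have ID1 of 236 CPM or more and BMPR2 of 68.5 CPM or less.

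The high dose against the low dose compares libraries of 1 set and does not use the vehicle. Of the 9 members, BMP4 in Bupleuri Radix was the single call over the 7 extracts (1.58% of all genes called there). No member was called in Coptidis Rhizoma (2.31% of all genes), Aconiti Lateralis Radix Preparata (3.29%), Citri Unshius Pericarpium (3.54%), Yijung-tang (0.431%) or Cimicifugae Rhizoma (0.221%). In Zizyphi Fructus edgeR called 0% of all genes, with 251 at an unadjusted p under 0.05 and 0 by DESeq2. In the fit of all libraries, none of the members tested was called for the high minus low difference between 2 extracts of a set, where 0.355% of all genes were called between Coptidis Rhizoma and Zizyphi Fructus, 7.02% between Citri Unshius Pericarpium and Cimicifugae Rhizoma and 0.318% between Bupleuri Radix and Aconiti Lateralis Radix Preparata. GREM1 was left out of the first of these. Between Bupleuri Radix and Aconiti Lateralis Radix Preparata its difference of -0.996 (adjusted p = 0.781) was called with no filter on low counts (0.0147), without the 4 libraries that stood apart (0.0233) and when the fit held only the libraries compared (1.53e-05). The doses of Bupleuri Radix and Aconiti Lateralis Radix Preparata in µg/mL are not the same.

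A wider list of 62 genes of the pathway and of related ligands and antagonists was read beside the members, of which 47 were tested. They were 9 of 15 ligands, 12 of 17 antagonists and matrix modulators, 9 of 11 receptors and co-receptors, all 11 SMADs and regulators and 6 of 8 targets. The list counts activin genes too, namely the subunits INHBA and INHBB and the antagonist FST, so not every call in it concerns a BMP gene. In Aconiti Lateralis Radix Preparata medium 8 rose and 5 fell, in its high dose 3 rose and 2 fell, in Coptidis Rhizoma high 2 rose and 5 fell, in Coptidis Rhizoma medium 1 rose and 2 fell, in Bupleuri Radix high 1 rose and 2 fell, and in Yijung-tang high 2 fell. Over all tested genes, 1529 rose and 1724 fell (17.5% called) in the first of these, 476 and 388 (4.65%) in the second, 1191 and 1141 (12.6%) in the third, 327 and 280 (3.27%) in Coptidis Rhizoma medium, 381 and 243 (3.36%) in Bupleuri Radix high and 145 and 109 (1.37%) in Yijung-tang high. The 7 calls of 47 in Coptidis Rhizoma high are thus near the share over all genes. NBL1, an antagonist, was the single call in Citri Unshius Pericarpium high (0.87, adjusted p = 0.0375), where its libraries overlapped with vehicle. It was lost when any 1 vehicle library or Citri Unshius Pericarpium replicate 3 was left out (adjusted p from 0.0990 to 0.792), and the log2 difference was 0.24 without the 4 libraries that stood apart. The other comparisons with vehicle had no call in this list. The median log2 difference of the tested genes in the list was 0.07 in Aconiti Lateralis Radix Preparata medium and 0.06 in Coptidis Rhizoma high, close to that of all genes (-0.01 in both).

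FST, which encodes follistatin, an antagonist that binds activins, moved in opposite directions. It had 41.9 and 42.5 CPM in Aconiti Lateralis Radix Preparata medium, against 7.89 to 9.24 CPM in vehicle, a rise of 2.29 ± 0.14 (adjusted p = 2.53e-15), and also rose at the high dose by 0.58 (adjusted p = 0.00379). In Coptidis Rhizoma it averaged 4.94 CPM (high) and 4.39 CPM (medium) and fell by 0.80 (adjusted p = 0.000249) and 0.97 (adjusted p = 0.000109), and in Bupleuri Radix high it fell by 0.50 (adjusted p = 0.0255). The Bupleuri Radix call was lost without vehicle replicate 1 (0.140) or 2 (0.0982) or high-dose replicate 1 (0.149) or 3 (0.135). GREM1 and FST, both antagonists, thus had their shared high values in Aconiti Lateralis Radix Preparata medium, while with Coptidis Rhizoma GREM1 was high and FST low.

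Among the ligands of the list, INHBB, an activin subunit, fell in 5 comparisons: by 0.78 in Bupleuri Radix high, 0.74 in Aconiti Lateralis Radix Preparata medium, 0.55 at its high dose, 0.44 in Yijung-tang high and 0.41 in Coptidis Rhizoma high. Its levels were 20.2 to 22.9 CPM in Bupleuri Radix high, against 37.3 to 37.9 CPM in vehicle. Its call in Yijung-tang was lost whichever library was left out (adjusted p from 0.0990 to 0.389), and that in Coptidis Rhizoma without replicate 2 (0.139) or 3 (0.128) of the extract. INHBA, the other activin subunit, rose by 3.15 ± 0.50 in Aconiti Lateralis Radix Preparata medium (adjusted p = 7.93e-06), with 1.27 and 1.72 CPM against 0.117 to 0.256 CPM in vehicle. GDF11 fell by 0.54 in Coptidis Rhizoma high (adjusted p = 0.000662, and 0.0537 without replicate 3). BMP6 fell by 0.64 in Yijung-tang high against vehicle (adjusted p = 0.0451) and by 1.05 against the low dose (adjusted p = 0.000513), with 4.92 and 4.95 CPM at the high dose and 10.1 and 10.3 CPM at the low dose. The call against vehicle was lost whichever library was left out (adjusted p from 0.0788 to 0.456).

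RUNX2, a transcription factor of bone formation, rose in 5 comparisons. The log2 rises were 1.86 in Aconiti Lateralis Radix Preparata medium, 1.62 at its high dose, 1.66 in Bupleuri Radix high, and 1.58 and 1.70 in Coptidis Rhizoma high and medium. It also rose at the high against the low dose in Coptidis Rhizoma (1.51, adjusted p = 0.0408), Bupleuri Radix (1.62, adjusted p = 0.00227) and Aconiti Lateralis Radix Preparata (1.21, adjusted p = 0.0171). These calls were lost without Coptidis Rhizoma high replicate 2 (adjusted p = 0.0503) or medium replicate 2 (0.244) against vehicle, and in the dose comparisons without any 1 of the Coptidis Rhizoma libraries (0.0975 to 0.455), Bupleuri Radix high replicate 2 (0.0675), Aconiti Lateralis Radix Preparata high replicate 2 (0.103) or low replicate 3 (0.154). RUNX2 levels stayed low, at 1.03 to 1.87 CPM in Bupleuri Radix high and 0.205 to 0.548 CPM in vehicle. All the comparisons with vehicle share its 3 libraries.

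SMURF2, a ubiquitin ligase that acts on SMADs and receptors, rose by 1.20 in Aconiti Lateralis Radix Preparata medium, 0.65 at its high dose and 0.67 in Coptidis Rhizoma high. ID4, the fourth ID gene, fell by 0.67 (adjusted p = 0.000135) in Coptidis Rhizoma high and by 0.47 (adjusted p = 0.0243) at the medium dose. It averaged 6.05 CPM at the high dose and 6.97 CPM at the medium dose, against 9.63 CPM in vehicle. The antagonist CHRDL2 fell by 1.55 in Aconiti Lateralis Radix Preparata medium and 0.79 at its high dose, BMPER rose by 0.88 at the medium dose, and CRIM1 fell by 0.56 in Coptidis Rhizoma high. Several of these calls rested on single libraries. SMURF2 in Coptidis Rhizoma was lost without replicate 2 (adjusted p = 0.0519) or 3 (0.0699), and in Aconiti Lateralis Radix Preparata high without vehicle replicate 3 (0.0656). ID4 at the medium dose was lost without vehicle replicate 2 (0.106) or 3 (0.0914) or either extract library (0.220 and 0.233). CHRDL2 at the high dose was lost without vehicle replicate 1 (0.227) or any extract library (0.0572 to 0.149), and CRIM1 without vehicle replicate 1 (0.0676) or 2 (0.0737) or either extract library (0.143 and 0.167).

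**Figure D5:**
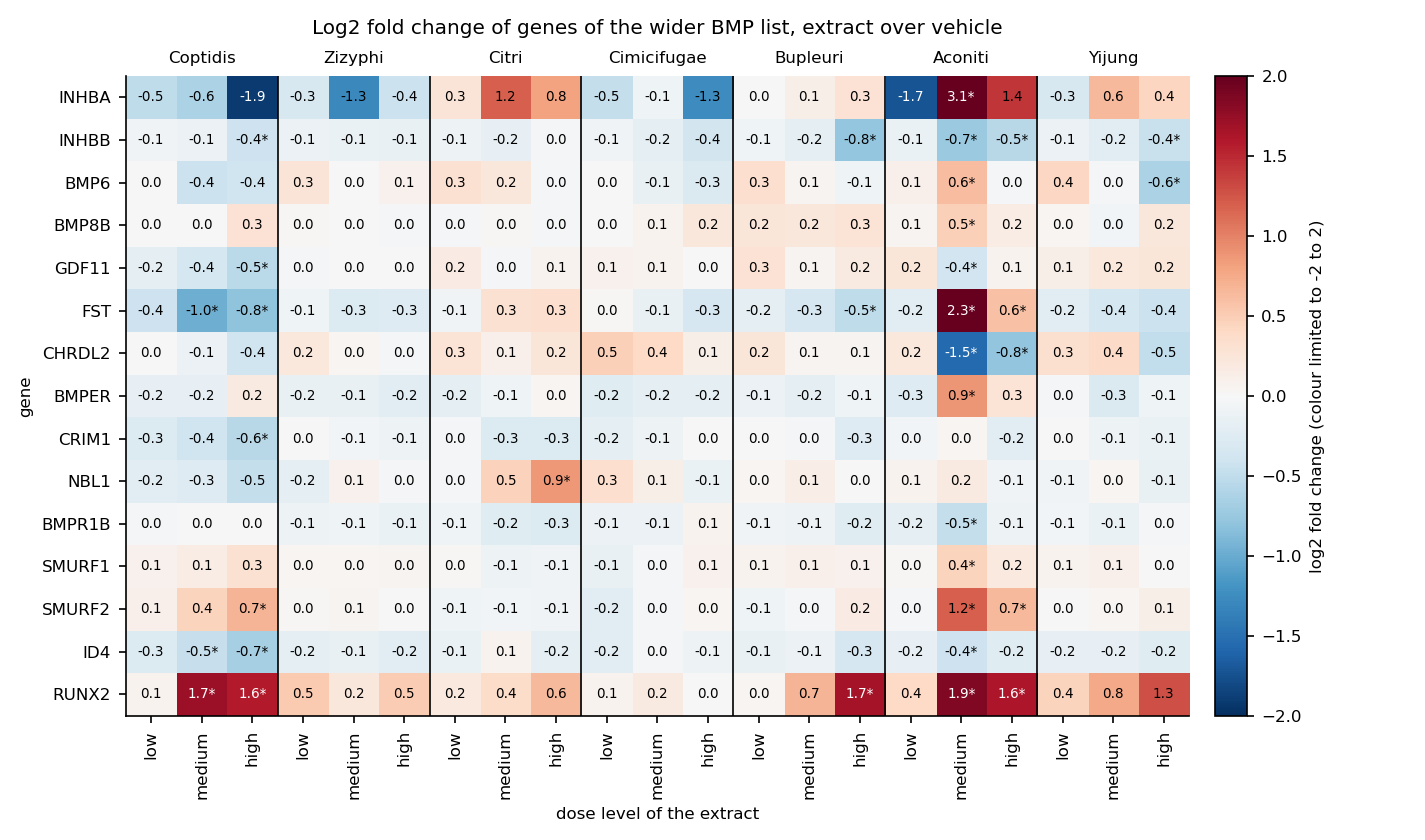
Log2 fold change of 15 genes of the wider BMP list (rows) in the 21 comparisons with vehicle (columns), with stars for calls. FST is up with Aconiti Lateralis Radix Preparata (2.29, medium dose) and down with Coptidis Rhizoma (-0.80, high dose), and RUNX2 is up with both.

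Of the 10 genes of the TGF-beta arm, which signals through SMAD2 and SMAD3, all were tested. In Coptidis Rhizoma high the co-receptor TGFBR3 fell by 0.72 (lost without replicate 2, adjusted p = 0.184) and SMAD2 by 0.55 (lost without replicate 3, adjusted p = 0.0892). TGFB1 was called in Citri Unshius Pericarpium high (0.61, adjusted p = 0.0313), with libraries that overlapped with vehicle and with the call lost when any 1 vehicle library or replicate 3 of the extract was left out (adjusted p from 0.0836 to 0.411).

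Beside GREM1 (chr15:32717974-32745107, GRCh38), the neighbours SCG5, ARHGAP11A and FMN1 were tested. SCG5 had 1.24 and 1.33 CPM in Coptidis Rhizoma high, against 0.410 to 0.548 CPM in vehicle, and rose by 1.40 (adjusted p = 0.0248), but at the medium dose it had 0.219 and 0.253 CPM while GREM1 had 23.7 CPM. ARHGAP11A fell by 0.45 in Coptidis Rhizoma high (adjusted p = 0.0206). Both calls were lost without either extract library or vehicle replicate 2, and also without vehicle replicate 3 for SCG5 (adjusted p from 0.0625 to 0.141) and vehicle replicate 1 for ARHGAP11A (0.0753 to 0.204). FMN1 fell by 1.56 in Aconiti Lateralis Radix Preparata medium (adjusted p = 2.28e-05), with 1.78 and 1.88 CPM against 4.46 to 6.30 CPM in vehicle. GREM1-AS1, which overlaps GREM1 on the other strand, was not tested and reached at most 0.329 CPM. The library kit marks strand. The sources used here do not say how strand entered the counting.

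By Pearson correlation of mean log2 CPM over the 25 groups, the genes most like GREM1 among 13083 were TMEM156 (0.977), NTN4 (0.971), NIBAN1 (0.959), SLC25A37 (0.959) and GRB10 (0.956). NIBAN1 averaged 103 CPM in Coptidis Rhizoma high, 73.0 CPM in Aconiti Lateralis Radix Preparata medium and 11.1 CPM in vehicle, and TMEM156 38.5, 33.5 and 10.3 CPM in these groups. The genes most like ID1 were NR2F6 (0.919), HSPB1 (0.862), SLC2A8 (0.855), HCFC1R1 (0.854) and MMP24OS (0.854), a pattern in which the 4 libraries that stood apart take part. Among the members, ID2 and ID3 had a correlation of 0.62, BMP4 and BAMBI of 0.72 and GREM1 and BMP4 of -0.63. These were the strongest of all pairs of members, with BMP2 left out. ID1 had only 0.08 with ID2 and 0.14 with ID3. All correlations of GREM1 here include the Coptidis Rhizoma groups, for which it was chosen. These are descriptions over group means that share the vehicle, the cell line and the library sets.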

How the data were processed

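RNA of 59 libraries was read as 100 bp pairs from strand-specific libraries, per the labels' protocols. The authors deposited expected counts per gene, which are not scaled for depth. The submitters' processing notes name RSEM 1.3.3 and STAR 2.7.3a, with FastQC 0.11.9 and Trim Galore 0.6.5, and the build GRCh38. The table's other 210 columns of samples were not used here. Counts were rounded and scaled by TMM in edgeR 4.0.16 (R 4.3.3). The 18568 genes kept by filterByExpr (minimum count 10, minimum total 15) were fitted with 25 group means (34 residual degrees of freedom) by the quasi-likelihood test. Benjamini-Hochberg adjustment was made separately for each of the 21 comparisons with vehicle, the 7 of high with low dose, the 3 differences between extracts of a set and the 2 added for Aconiti Lateralis Radix Preparata. Genes with an adjusted p below 0.05 are called, "rose" and "fell" are used for calls, and ± after a log2 fold change is a standard error. Log2 CPM used a prior count of 2. The procedure was tested on simulated counts. Motifs were searched in RefSeq promoter windows.

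Alternatives were DESeq2 1.42.0, RLE scaling, no filter on low counts, a fit of only the libraries compared, a fit without the 4 libraries that stood apart, the replicate number as a block, and leaving out each library. Leave-one-out fits kept the dispersion trend of the full fit and estimated the quasi-likelihood dispersions anew. Where they left 1 library in a group, it was assumed to vary like the other groups. Replicate numbers paired the libraries in 0 of 21 comparisons with vehicle and in 1 of the 7 dose comparisons, Citri Unshius Pericarpium, where the correlations of same-numbered deviations were 0.122 to 0.235.

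Named genes were the 10 members, up to 6 called genes of largest log2 fold change a comparison from the wider BMP list and from the TGF-beta arm (1 CPM or more on average in the group where they were higher), genes of these lists called in at least 4 comparisons with vehicle, the measured neighbours of GREM1, and the 5 genes most like GREM1 and ID1. A gene that this rule names is not reported here. The members and lists were chosen with earlier results of these data known, so no pattern here is independent support for them. The labels do not say whether replicates were separate cultures, so p-values measure only the spread between these libraries, which may be technical. For the vehicle, the DMSO content is 0.1% in the sample labels, while the series text differs, a disagreement the data do not settle.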

Additional observations from a re-analysis of the deposited data

Results flagged for a closer look

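The high minus low difference was compared between extracts of a library set. For FST, the activin antagonist follistatin, it was lower in Bupleuri Radix than in Aconiti Lateralis Radix Preparata by a log2 difference of -1.12 ± 0.186 (SE, edgeR adjusted p = 0.000764), and this was called in all 18 alternatives. FST also had a higher difference in Citri Unshius Pericarpium than in Cimicifugae Rhizoma, by 0.765 ± 0.187 (adjusted p = 0.0363). NBL1, another secreted antagonist, differed between these extracts by 1.4 ± 0.336 (adjusted p = 0.0363). Without the 4 libraries that stood apart, FST differed by 0.57 (adjusted p = 0.452) and NBL1 by 0.31 (0.81). Both were also lost without 1 of 7 libraries of these extracts in turn, with adjusted p from 0.0515 to 0.456.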

How the results depend on the processing

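Of 473 alternative counts for 40 results, 394 were within 1.5 times the main count, and 13 results were so throughout. All 13 had a main count of 0, in comparisons where the fit of all libraries called at most 0.431% of all genes. No count above 0 stayed within 1.5 times in every alternative. Of 105 called gene results, 44 kept the call in every alternative run, among them GREM1 with Aconiti Lateralis Radix Preparata at both upper doses against vehicle. Counts below are calls among the 9 other members, main value 0 unless given. In fits of only the libraries compared there were 4 in Coptidis Rhizoma high against vehicle (main 1), 2 at its medium and 1 at its low dose, 0 in Cimicifugae Rhizoma high (main 1), 5 in Bupleuri Radix high (main 1) and 2 at its low dose, 2 in Aconiti Lateralis Radix Preparata high, 2 in Yijung-tang high and 1 at its low dose. The high against the low dose gave 6 in Coptidis Rhizoma, 3 in Bupleuri Radix (main 1) and 3 in Aconiti Lateralis Radix Preparata, and the last extract's medium dose set against its high one gave 6 (main 3). The shares of all genes called in these fits were 44%, 26.7% and 13.9% at the high, medium and low dose of Coptidis Rhizoma, 0.0727% in Cimicifugae Rhizoma high, 26.2% and 12.2% at the high and low dose of Bupleuri Radix, 22.9% in Aconiti Lateralis Radix Preparata high, and 18.5% and 3.03% at the high and low dose of Yijung-tang. In the dose comparisons the shares were 27.3%, 9.72%, 12.6% and 27.2% in the order given. Without the 4 libraries that stood apart there were 2 in Coptidis Rhizoma high, 1 in Aconiti Lateralis Radix Preparata high, 2 in Bupleuri Radix high against low, and 5 between the upper doses of Aconiti Lateralis Radix Preparata (main 3). With no filter on low counts there were 0 in the high doses of Coptidis Rhizoma, Cimicifugae Rhizoma and Bupleuri Radix and in Bupleuri Radix high against low (main 1 each), 1 in Citri Unshius Pericarpium high, 2 at its medium dose, 1 in its high against low dose, 1 in Cimicifugae Rhizoma low and 1 between the upper doses of Aconiti Lateralis Radix Preparata. The shares of all genes with no filter were, in this order, 4.74%, 0.298%, 1.5%, 0.745%, 5.69%, 1.74%, 5.59%, 0.739% and 2.76%. Without the 4 libraries the shares were 27.9% in Coptidis Rhizoma high and 15% in Aconiti Lateralis Radix Preparata high. For Bupleuri Radix high against low and the upper doses of Aconiti Lateralis Radix Preparata no share is given for that fit. Those counts cannot be set against all genes. DESeq2 gave 0 in Cimicifugae Rhizoma high. The high minus low difference gave 2 between Coptidis Rhizoma and Zizyphi Fructus (only the libraries compared, no share given). Between Citri Unshius Pericarpium and Cimicifugae Rhizoma it gave 1 with no filter, with 7.77% of all genes called, and 1 with the replicate block. The cause of these changes was not tested.

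In the wider BMP list, fits of only the libraries compared called 23 in Coptidis Rhizoma high (main 7), 0 in Citri Unshius Pericarpium high (main 1), 15 in Bupleuri Radix high (main 3), 16 in Aconiti Lateralis Radix Preparata high (main 5) and 12 in Yijung-tang high (main 2), with the shares of all genes given above for these fits (0% in Citri Unshius Pericarpium high). The 23 of 47 are near the 44% over all genes. Without the 4 libraries the counts were 15 in Coptidis Rhizoma high, 3 in Cimicifugae Rhizoma high (main 0), 13 in Bupleuri Radix high, 11 in Aconiti Lateralis Radix Preparata high and 7 in Yijung-tang high, with 27.9%, 3.72%, 14.3%, 15% and 9.11% of all genes called in this order. With no filter they were 7 in Citri Unshius Pericarpium high and 0 in Yijung-tang high, with 5.69% and 0.677% of all genes called. In Citri Unshius Pericarpium high, DESeq2 called 4 and the replicate block 3. For DESeq2, the replicate block and single libraries left out, no share of all genes is given beside the counts of members or list genes.

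Leaving out single libraries gave 0 to 1 in the high doses of Coptidis Rhizoma, Bupleuri Radix, Cimicifugae Rhizoma and Citri Unshius Pericarpium, 0 to 1 in Citri Unshius Pericarpium medium and in its high against low dose, 3 to 4 in Aconiti Lateralis Radix Preparata medium (main 5), 1 to 3 in its medium against high dose, 2 to 3 in its medium against low dose (main 4), and 0 to 2 in the difference between Citri Unshius Pericarpium and Cimicifugae Rhizoma. In the wider list it gave 3 to 8 in Coptidis Rhizoma high, 0 to 15 in Citri Unshius Pericarpium high, 2 to 3 in Bupleuri Radix high, 4 to 5 in Aconiti Lateralis Radix Preparata high and 0 in Yijung-tang high.

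GREM1 changed sign in 3 results that were not called. In Cimicifugae Rhizoma low against vehicle (-0.04) it was 0.1714 without the 4 libraries and ran from -0.1549 to 0.174 over single libraries left out, above 0 without vehicle replicate 1 (0.0274) or low-dose replicate 2. In Citri Unshius Pericarpium high against low (0.71) it ran from -0.1485 without high-dose replicate 2 to 1.06 without replicate 3. In the difference between Citri Unshius Pericarpium and Cimicifugae Rhizoma (-0.18) it was 0.4275 without the 4 libraries and ran from -1.027 (without Citri Unshius Pericarpium high replicate 2, called at adjusted p = 0.0347) to 0.1829 over single libraries left out, above 0 without Cimicifugae Rhizoma low replicate 2 (0.03853) or Citri Unshius Pericarpium high replicate 3.

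The replicate block called 10.3% of all genes in Citri Unshius Pericarpium high against low, and 3.54% were called without it. Among the members it added GREM1 in Bupleuri Radix high against low (adjusted p = 0.0476), BMPR2 in the difference between Citri Unshius Pericarpium and Cimicifugae Rhizoma (0.0378) and ID1 in the medium against the low dose of Aconiti Lateralis Radix Preparata (0.0295), and it ended no member's call.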
